A study of Mus musculus with 4 samples.

Results

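Binding of CTCF, a zinc-finger protein found at many promoters and chromatin boundaries, was mapped by ChIP-seq (sequencing of immunoprecipitated chromatin) in whole testes of F1 mice bred from the B6 and CAST strains. The labels give 2 CTCF immunoprecipitated (IP) samples and 2 input samples, all of the same cross and tissue. The testis was not sorted, so signal from germ cells at each stage and from somatic cells cannot be told apart. All values come from 1 deposited merged peak list on the mm10 build. Whether 1 or both IP samples entered that list was not settled, no value per sample was analysed here, and there is therefore no replicate error. The read depth is unknown.

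The members described here are the snoRNA genes of RefSeq on the 19 autosomes and the CTCF peaks beside them. RefSeq annotated 1340 snoRNA genes, of which 1286 were autosomal. A further 10 were left out because their coordinates lay under 3 Mb, where they belong to scaffolds, and 1276 remained. A gene was counted as having a CTCF summit when the highest point of a peak lay in the gene or within 1 kb of it. By this rule 126 of the 1276 genes had a summit, through 122 of the 50267 autosomal peaks, which is 0.243% of them.

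Small nucleolar RNAs (snoRNAs) guide chemical modification of ribosomal and spliceosomal RNA inside protein-RNA particles. C/D box snoRNAs, named Snord in the mouse, guide 2′-O-methylation by fibrillarin, and H/ACA box snoRNAs, named Snora, guide pseudouridylation by dyskerin. Most mammalian snoRNAs are cut from introns of host genes, many of which encode ribosomal proteins, translation factors or noncoding RNAs of the Snhg series, so most have no promoter of their own. Large arrays of C/D snoRNAs also lie in imprinted regions.

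Promoter windows of host genes are shown first, because most peaks at a host end of known strand lay at the host's start. RefSeq windows (GRCm38.p6, whose coordinates are those of mm10) run from 250 bases before to 50 bases after an annotated start. Among them, 14 windows of 14 hosts held a summit that was also within 1 kb of a snoRNA gene, and these summits belonged to 13 peaks. The 3 windows below are those of the highest folds on separate peaks. In the first, capitals mark matches of the CTCF core consensus, and in the other two they mark the 21 bases centred on the summit.
Gm42228, chr5:23852990-23853289, minus strand: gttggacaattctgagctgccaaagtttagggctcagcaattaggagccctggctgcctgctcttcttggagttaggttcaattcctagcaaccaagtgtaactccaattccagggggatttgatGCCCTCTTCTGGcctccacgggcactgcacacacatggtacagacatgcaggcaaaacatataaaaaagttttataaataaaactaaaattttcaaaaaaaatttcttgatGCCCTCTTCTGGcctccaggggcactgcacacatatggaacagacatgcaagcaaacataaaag
Snhg9, chr17:24719916-24720215, minus strand: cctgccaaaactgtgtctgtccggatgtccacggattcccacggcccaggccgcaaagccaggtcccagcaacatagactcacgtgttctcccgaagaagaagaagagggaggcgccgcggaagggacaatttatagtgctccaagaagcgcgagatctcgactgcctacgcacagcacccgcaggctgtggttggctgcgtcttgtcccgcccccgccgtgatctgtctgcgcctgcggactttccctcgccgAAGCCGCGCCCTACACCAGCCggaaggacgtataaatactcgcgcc
Rab26os, chr17:24528001-24528300, plus strand: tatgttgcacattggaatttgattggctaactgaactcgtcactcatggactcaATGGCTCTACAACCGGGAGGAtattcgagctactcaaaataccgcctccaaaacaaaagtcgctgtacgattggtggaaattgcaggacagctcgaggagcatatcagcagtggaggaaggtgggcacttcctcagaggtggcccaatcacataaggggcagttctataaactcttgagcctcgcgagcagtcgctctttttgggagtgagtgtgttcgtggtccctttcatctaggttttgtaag
Gm42228, a lncRNA gene, hosts Snord93 and was the sole window of the 14 to hold the core consensus. Its 2 matches lay at positions 126 to 137 and 237 to 248 of the window, both on the strand opposite to the printed one, and the summit lay at position 208, between them. The Snhg9 peak also lay in a promoter window of Rps2, which is transcribed the other way. That window's start lies 1942 bp inside the Rps2 span used for all counts of host ends, so Rps2 was counted there as a host with no summit at an end. Among 456 host windows, the core consensus was present on either strand in 15.5% of the 97 with a summit and in 1.95% of the 359 without. Among all 31396 promoter windows it was present in 13.1% of the 4204 that held a summit, in 1.87% of the 27192 that held none, and in 3.37% overall. The letters AGGGGGC can fall in a match of the core. They were found on either strand in 21.6% of host windows with a summit and in 10.9% of those without. Among all promoter windows they were found in 21.9% of those with a summit, in 8.94% of those without, and in 10.7% of both together. A match is a description of letters and does not show that a site is used.

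The share of snoRNA genes with a CTCF summit within 1 kb was 9.87% (126 of 1276, exact Clopper-Pearson 95% interval 8.29% to 11.6%). Among the other autosomal short RNA genes, of the same maximum length of 320 bp, 287 of 2550 had such a summit, which is 11.3%. The members' share as a whole was thus close to that background. By type, a summit was found at 108 of 386 tRNA genes (28.0%), 113 of 1136 miRNA genes (9.95%) and 58 of 924 snRNA genes (6.28%). Intervals on shares cover counting error only, and genes that share a summit or a host are not independent. When snoRNA genes within 2 kb of each other were joined, 10.9% of the resulting 1043 clusters had a summit. Most bound genes had 1 summit (118 genes) and 8 had 2 or more, while 8 peaks each served 2 or more genes. The median distance to the nearest summit was 21.1 kb over all members, with quartiles of 4.63 kb and 81.0 kb.

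The share with a summit differed between classes of snoRNA gene. The annotation names 92 genes Snord and 36 Snora, and the other 1148 have only a number (874 Gm, 264 LOC and 10 accession-style symbols). RefSeq transcripts of the predicted kind (XR accessions) stood behind 1136 of the 1148 numbered genes and 17 of the 128 Snord and Snora genes. Outside the Snhg14 array, 20 of 74 Snord genes had a summit within 1 kb (27.0%, interval 17.4% to 38.6%), and so did 11 of 36 Snora genes (30.6%, 16.3% to 48.1%). Numbered genes of 126 to 138 bp had one at 74 of 597 genes (12.4%, 9.86% to 15.3%), and numbered genes of other lengths at 20 of 344 (5.81%, 3.59% to 8.84%). The length limits of 126 and 138 bp were set after the values were seen, as the shortest and longest numbered genes over 100 bp with a summit inside, so values by this class are a description. The value of tRNA genes, 28.0%, lay inside the intervals of both the Snord and the Snora genes, as the plot of shares shows.

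**Figure D1:**
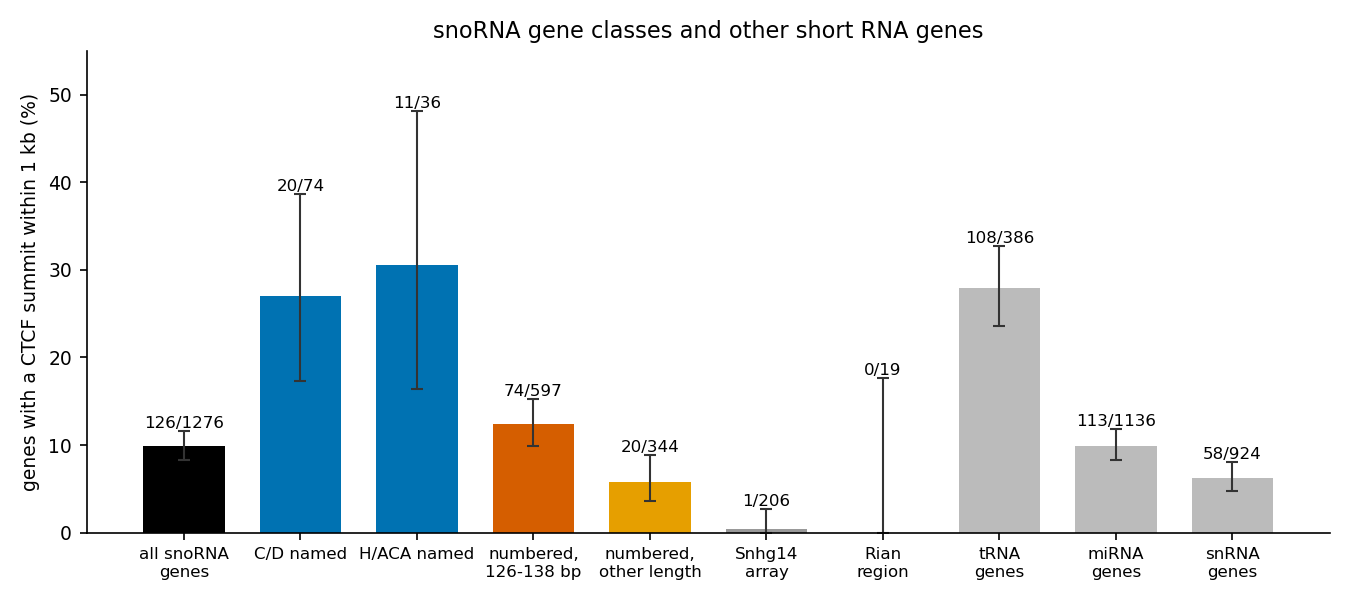
Bars give the percent of genes with a CTCF summit within 1 kb (y axis, linear from 0) for all snoRNA genes, for classes of snoRNA gene and, in grey at the right, for tRNA, miRNA and snRNA genes. Error bars are exact 95% binomial intervals for counting error only, and the labels over them are genes with a summit over all genes of the class. Snord (C/D) and Snora (H/ACA) genes reach 27.0% and 30.6%, against 0.485% in the Snhg14 array.

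The summit lay within the snoRNA gene itself at 56 genes (4.39%), against 5 of the 2550 other short RNA genes, which is 0.196%. Of these 56 genes, 54 were numbered genes of 126 to 138 bp, so 9.05% of that class carried a summit inside (interval 6.87% to 11.6%). The 2 exceptions were Snora17, described below, and LOC115488830, a gene of 77 bp within Ddx39b, a gene for an RNA helicase, with a fold of 2.93. None of the 74 Snord genes outside the array held a summit, which allows a share of up to 4.86%. By length, summits lay inside 8 of 90 numbered genes of 126 to 128 bp (8.89%), 12.1% of those of 129 to 130 bp (14 genes) and 26 of 216 of 131 to 132 bp. They lay inside 3 of 85 of 133 to 134 bp (3.53%) and 3 of 90 of 135 to 138 bp (3.33%). The choice of limits fixed the counts on either side of the class, 0 of 57 from 101 to 125 bp and 0 of 163 from 139 to 150 bp.

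The density of summits by distance gives the same contrast. A summit was counted once for each gene it lay near, over flanks summed by gene, so shared summits count more than once. In numbered genes of 126 to 138 bp, 54 summits fell in 78.5 kb of gene sequence, a density of 688 per Mb. No summit fell in the 298.5 kb from 1 to 250 bp away. Density was 26.8 per Mb from 251 to 500 bp and 22.0 per Mb from 10 to 20 kb, close to the autosomal mean of 20.9 per Mb. Snord and Snora genes outside the array had another profile, with 97.6 summits per Mb inside the genes (a single summit), 145 per Mb from 1 to 250 bp, 182 per Mb from 501 to 1000 bp and 67.3 per Mb from 10 to 20 kb. Other short RNA genes had 20.7 per Mb inside, 78.4 per Mb from 251 to 500 bp and 36.8 per Mb from 10 to 20 kb.

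**Figure D2:**
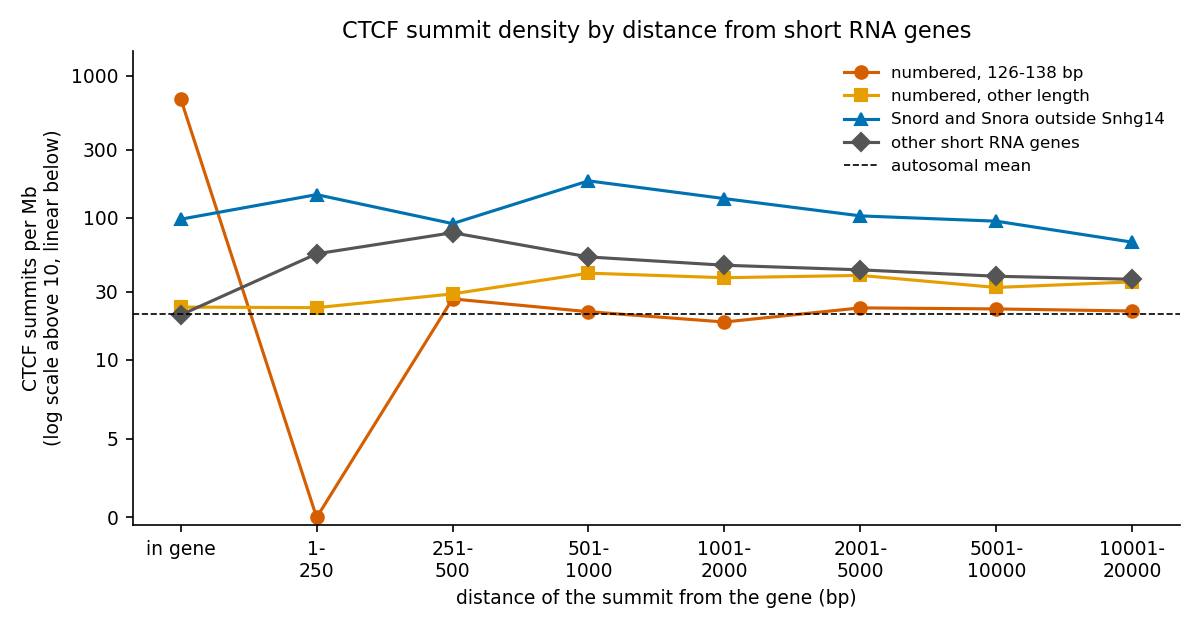
CTCF summits per Mb (y axis, logarithmic above 10 and linear below) are plotted by distance of the summit from the gene in bp (x axis) for 3 classes of snoRNA gene and for other short RNA genes. A summit near several genes is counted once for each. Numbered genes of 126 to 138 bp stand at 688 per Mb inside the gene, 0 from 1 to 250 bp, and near the dashed autosomal mean of 20.9 beyond.

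The 54 summits inside numbered genes of 126 to 138 bp lay on 54 peaks in 54 different clusters, and these peaks were 44.3% of all peaks near snoRNA genes. Their fold enrichment, the authors' ratio of signal to background at the summit, had a median of 6.42 (quartiles 4.84 and 8.08, range 2.62 to 16.4). It was at least 5 at 39 of them and at least 10 at 10. The peaks were narrower than the rest, with a median width of 354.5 bp, against 538 bp for the autosomal peaks away from snoRNA genes. Their median −log10 q was 18.6, against 30.1 in those other peaks. Within the gene, the summit lay a median of 34 bp from the nearer gene end (range 6 to 62 bp) and 42 of the 54 lay 10 to 50 bp from it. A gene of at most 138 bp bounds these distances, and a preferred position within the gene was not tested. All 54 genes had predicted RefSeq transcripts. They were spread over 16 chromosomes, with the most, 9, on chromosome 6. A host contained 14 of them (5.65% of the 248 hosted genes of this class), and 40 had none (11.5% of the 349 without a host). For all 54, the distance to the nearest end of a protein-coding or lncRNA gene had a median of 16.4 kb (range 1.03 to 469 kb). Reads that fit several similar gene copies can be placed in different ways by an aligner, and the part of read placement in these values was not tested.

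**Figure D3:**
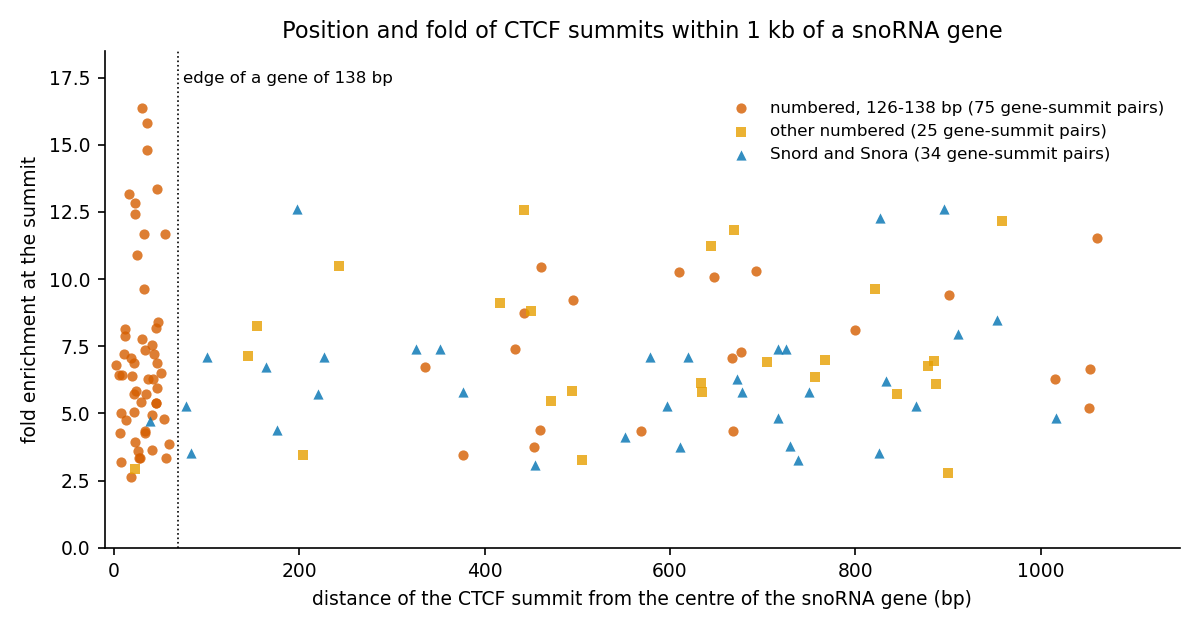
Each point is 1 pair of a snoRNA gene and a CTCF summit within 1 kb, placed by the distance of the summit from the centre of the gene in bp (x axis) and by the fold enrichment at the summit (y axis). Numbered genes of 126 to 138 bp crowd to the left of the dotted edge of a gene of 138 bp, with folds of 2.62 to 16.4, and the Snord and Snora genes spread over the whole window.

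The strongest peaks without a host were all of this kind. The summit inside Gm25214 (chr2:168882040-168882168) had a fold of 16.4, with 72.5 as its −log10 q. Gm23748 (chr9:82247848-82247978) had a fold of 15.8, and Gm24230 (chr6:54974651-54974779) of 14.8. Gm25726 (chr6:57859820-57859948) had a fold of 13.4, followed by Gm22833 (chr6:123424556-123424687) with 13.2 and Gm22722 (chr6:123539901-123540032) with 12.8. In all 6 the summit fell within the annotated gene, and 4 of the 6 genes were on chromosome 6. No function is annotated for these numbered genes in the files used.

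By place, 29 of the 122 peaks lay within 1 kb of an end of the host, 37 lay in the host and further from its ends, and 56 belonged to snoRNA genes without a host. Of all members, 774 genes had a host and 502 had none. A summit within 1 kb was found at 69 of the hosted genes (8.91%) and at 57 of those without a host (11.4%). By these rules no peak of a hosted snoRNA gene could lie outside the host and beyond 1 kb of its ends. The median fold was 5.79 at host ends (quartiles 3.80 and 7.39), 6.64 inside hosts (5.47 and 8.75) and 6.84 without a host (4.99 and 8.58). All 122 peaks had a median of 6.44, against 6.83 in the other 50145 autosomal peaks. Of the 122 peaks, 72.1% had a fold of at least 5, against 71.9% of the other peaks. Of the 56 peaks without a host, 55 were also more than 1 kb from any protein-coding or lncRNA gene end, and the summit lay in the snoRNA gene at 40 of them.

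**Figure D4:**
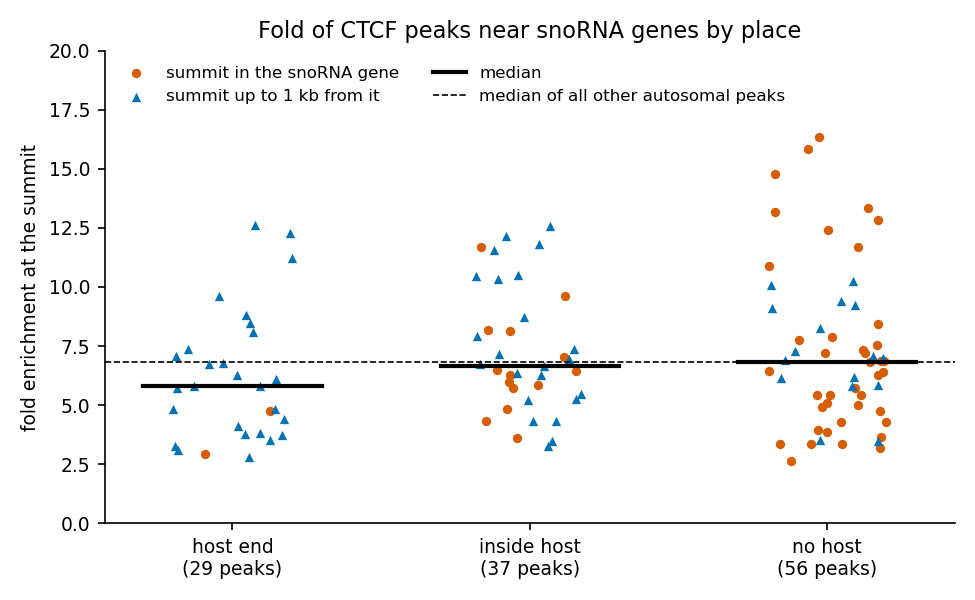
Fold enrichment at the summit (y axis, linear) is shown for each of the 122 peaks near a snoRNA gene by place (x axis), with circles where the summit lies in the snoRNA gene and triangles where it lies up to 1 kb away. Bars are medians of 5.79, 6.64 and 6.84, against a dashed median of 6.83 for all other autosomal peaks, and the circles are most frequent without a host.

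At host ends the highest fold, 12.6, belonged to Snora78, an H/ACA gene in Snhg9, whose span also lies in Rps2, a ribosomal protein gene. Its summit was 119 bp from the snoRNA gene and 14 bp from the annotated start of Snhg9, in the Snhg9 window printed above. The same peak was 838 bp from Snora64, which also lies in Rps2. Snord93, a C/D gene in Gm42228 and 2700038G22Rik, had a summit 805 bp away and 43 bp from the start of Gm42228, with a fold of 12.3. LOC115490074 in Rps20, another ribosomal protein gene, had a fold of 11.2 at 611 bp. LOC115488833 in the lncRNA gene Rab26os had a summit at each end of that short host, with folds of 9.63 beyond its end and 8.81 before its start. Snora7a in Rpl32, a ribosomal protein gene, had a fold of 8.48 at 889 bp from the snoRNA gene and 249 bp from an end of the host. Where the strand of the host was known, 18 of these peaks lay nearer the start and 5 nearer the end. Their median folds were 5.32 and 7.09, and the strand was not known for 6. By the 1 kb rule a summit in the middle of a short host also counts as at an end. Of the 5, the summits of Snhg12 (the median), 1110038B12Rik and 2410006H16Rik lay inside the host, 913 to 964 bp from its end. These hosts are 1930 to 2347 bp long.

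Inside hosts the 6 highest folds were all at numbered genes. LOC115487912 in Med24, a Mediator subunit gene, had a fold of 12.6 at 391 bp. LOC115490494 in Atp6v0a4, a proton pump subunit gene, had 12.2 at 907 bp, and LOC115488402 in Timm23, a mitochondrial import gene, had 11.8 at 571 bp. LOC115485644, in Psd3 and Gm15991, had the summit inside the snoRNA gene with a fold of 11.7. Gm26225 in Kif13b, a kinesin gene, had 11.5 at 994 bp, and LOC115488570 in Rpl3, a ribosomal protein gene, had 10.5 at 216 bp. Of the 37 peaks here, 14 had the summit in the snoRNA gene. At Snord and Snora genes the peaks placed inside a host numbered 3. They lay 862 bp from Snord67 in Ckap5 (fold 7.94), 297 bp from Snord110 in Nop56 (7.38), and 38 bp from Snord32a in Rpl13a (5.27), and the last was also 556 bp from Snord33 and 833 bp from Snord34.

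Host bodies, taken at least 1 kb from both host ends, held 28.5 summits per Mb within 1 kb of a snoRNA gene (37 in 1300 kb), against 13.1 per Mb in the rest of the same hosts (856 in 65.2 Mb), a ratio of 2.17. By class, the density near and away was 51.1 and 12.4 per Mb in hosts of numbered genes of 126 to 138 bp (ratio 4.11), 27.8 and 14.2 per Mb in hosts of other numbered genes outside the arrays (ratio 1.96, 9 summits near) and 19.9 and 11.3 per Mb in hosts of Snord and Snora genes, Snhg14 included (ratio 1.76, 3 summits near). The Snhg14 array adds much of the near sequence with 1 summit, and without Snhg14 the densities were 39.5 near and 13.2 per Mb away. The ratio was 1.13 without the numbered genes of 126 to 138 bp, and 1.96 when Snhg14 was left out with them (12 summits in 429 kb near).

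Snora17 was the sole Snord or Snora gene with a summit inside its span. It is an H/ACA gene of 132 bp in Snhg7 (chr2:26639190-26639321), and its fold was 4.74, with a −log10 q of 8.47. The summit was 27 bp from the nearer end of Snora17 and 950 bp from the start of Snhg7. The 3 Snord genes without a host were Snord118, Snord13 and Snord89. The RNA of Snord118, known as U8, acts in processing of the large ribosomal subunit RNA, and a summit lay 15 bp from the gene with a fold of 3.54. That of Snord13, known as U13, lay 785 bp away with a fold of 6.19. The nearest summit to Snord89 was 18.3 kb away.

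Host gene ends were counted separately from the snoRNA genes within them. Over all 459 hosts, 209 had a summit within 1 kb of an end (45.5%, interval 40.9% to 50.2%). Among protein-coding hosts, 179 of 352 had one (50.9%), against 40.3% of all protein-coding genes. Among lncRNA hosts, 30 of 107 had one (28.0%), against 19.5% of all lncRNA genes. Of the hosts of Snord and Snora genes, 64 of 86 had a summit at an end (74.4%), while hosts of numbered genes alone had one at 145 of 373 (38.9%). Protein-coding hosts of Snord and Snora genes reached 77.4% (48 of 62) and lncRNA hosts 66.7% (16 of 24). At the annotated start, where the strand was known, 50 of 70 hosts of Snord or Snora genes had a summit (71.4%), against 35.4% of all protein-coding and 14.7% of all lncRNA genes with a known strand. No test was made of these shares.

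By kind, 12 of 15 noncoding Snhg hosts and Gas5 (80.0%) had a summit at an end, as did 19 of 28 ribosomal protein hosts (67.9%). A list of hosts chiefly for nucleolar, translation or folding proteins, with Sf3b3 and Ddx39b also on it, had 19 of 24 (79.2%). The other hosts had 159 of 390 (40.8%). The lists went by symbol and were not complete, so the other hosts include Ppan, Hspa9, Pabpc4 and Sars. Hosts and other genes were furthest apart among genes up to 5 kb. Protein-coding hosts up to 5 kb had a summit at an end at 23 of 37 genes (62.2%), against 26.1% of genes of that length that host none, and for lncRNA genes up to 5 kb the values were 20 of 32 (62.5%) and 23.5%. In protein-coding hosts over 100 kb the order turned, with 36.6%, against 43.1% in genes that host none. Among lncRNA genes the hosts were higher up to 5 kb and close to the others from 20 to 100 kb (6 of 40, 15.0%, against 14.3%). Their shares were lower from 5 to 20 kb (3 of 21, 14.3%, against 19.0%) and over 100 kb (1 of 14, 7.14%, against 16.5%). Those lower shares rest on very few hosts with a summit.

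**Figure D5:**
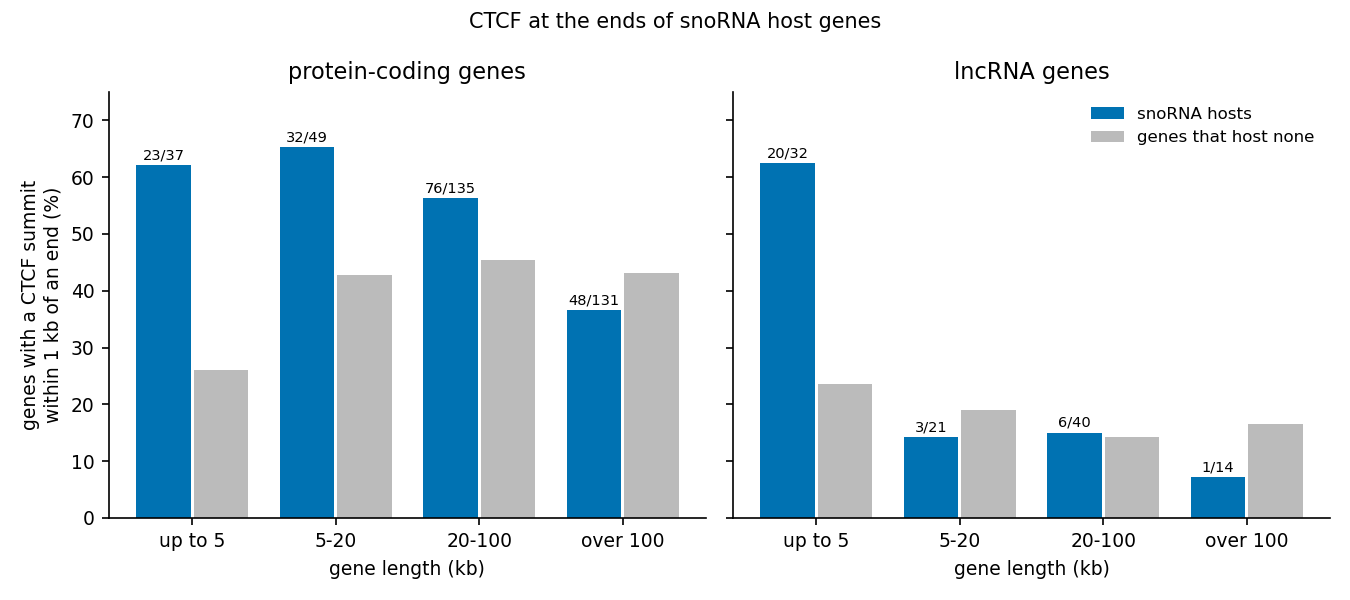
Bars give the percent of genes with a CTCF summit within 1 kb of either end (y axis, linear from 0) by gene length in kb (x axis), with snoRNA hosts in blue and genes that host none in grey, for protein-coding genes (left) and lncRNA genes (right). Labels over the blue bars are hosts with a summit over all hosts; hosts up to 5 kb reach 62.2% and 62.5%, against 26.1% and 23.5%.

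The hosts richest in snoRNA genes had few or no summits near them. Snhg14 held 206, Rian 11, Gas5 8, Snhg1 8 and Taf1d 6. None of the snoRNA genes in Rian, Gas5, Snhg1 or Taf1d had a summit within 1 kb. The nearest summit to the start was 35.9 kb away at Gas5 (fold 3.84) and 4.90 kb away at Snhg1 (fold 9.26). At Taf1d, which encodes an RNA polymerase I factor, it was 5.14 kb away (fold 2.44). At the other extreme, 9 hosts tied with 2 summits each near their snoRNA genes, namely Rps2, Snhg9, Rab26os, Rps20, Rpl3, Atp6v0a4, Kif13b, 1110038B12Rik and 2410006H16Rik. In 2410006H16Rik, which holds 3 Snord genes in 1930 bp, a summit lay 137 bp from the start (fold 5.81). The other, 964 bp from the end (fold 7.39), lay in the middle of the gene. Snhg12 held 4 Snord and Snora genes (Snora16a, Snora44, Snora61 and Snord99), and a single summit of fold 7.09 served all 4.

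The Snhg14 array, the imprinted region of the Snord115 and Snord116 families, held 1 CTCF summit in 634 kb (chr7:59347173-59980945), a density of 1.58 per Mb, where the autosomal mean density would give 13.3. It holds 206 snoRNA genes. Of these, 1 gene had a summit within 1 kb (0.485%, interval 0.0123% to 2.67%). That summit lay 458 bp from Gm25350, with a fold of 3.28 and 3.31 as its −log10 q, both under the autosomal medians of 6.82 and 30.1. None of the 18 genes with Snord symbols there had one. The nearest summits beyond the array were 118 kb below its lower edge (fold 7.62) and 26.9 kb above its upper edge (fold 4.27). The Rian region, where the Snord113 and Snord114 families lie, spans 57.1 kb (chr12:109631074-109688125) and its 19 snoRNA genes had no summit, which allows a share of up to 17.6%, above the 9.87% of all members. At the autosomal mean density a region of that length would hold 1.19 summits, so a lower density was not detectable there. Its flanking summits lay 21.8 kb below (fold 5.07) and 142 kb above (fold 4.27). Array copies resemble each other, and how far reads could be placed in them was not tested.

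Across chromosomes, the share with a summit was highest on chromosome 17, at 23.3% (7 of 30 genes, interval 9.93% to 42.3%). Of the other short RNA genes there, 7 of 94 had a summit within 1 kb (7.45%). The share was lowest on chromosome 1, at 0 of 77, which allows a share of up to 4.68%. Both chromosomes were picked out after their values were seen. On chromosome 1 the nearest gene, Gm22371, was 1451 bp from a summit, just beyond the window. The chromosome was not short of peaks, with 3185, and 38.6% of its protein-coding genes carried one near an end. Of its other short RNA genes, 21 of 181 had a summit within 1 kb (11.6%).

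At the border of the window, the last summits within 1 kb were 984 bp from Gm26165 (fold 5.20), 987 bp from Gm25604 (fold 6.64) and 994 bp from Gm26225 (fold 11.5). The nearest ones beyond it were 1012 bp from LOC115488830 (fold 2.72), 1016 bp from Gm23995 (fold 4.27) and 1036 bp from Snora17 (fold 4.37). LOC115488830 and Snora17 are each counted through another summit, which lies inside the gene.

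Genes for the proteins of the snoRNA particles and for their assembly had CTCF summits at their ends more often than not. Of 22 listed autosomal genes, 18 had a summit within 1 kb of an end (81.8%), against 40.3% of all protein-coding genes, with a median highest fold of 5.16 (range 2.44 to 14.7). The highest were Snu13, which binds the kink-turn of C/D snoRNAs, with a fold of 14.7, Fbl, the fibrillarin methyltransferase, with 9.95, and Coil, the Cajal body protein coilin, with 9.12. Snu13 had 2 summits near its ends, and the nearest to an end, at 47 bp, had a fold of 2.93. Beside Snu13 and Fbl, the core C/D protein genes Nop56 and Nop58 had folds of 4.18 and 3.87. Nhp2, Nop10 and Gar1, core H/ACA proteins, had folds of 8.60, 8.07 and 5.19. The 4 genes without a summit were Rpap3, Znhit6, Pih1d1 and Ruvbl2, which act in particle assembly. Nop56 is itself a host, with 5 snoRNA genes in its span.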

How the data were processed

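CTCF ChIP-seq was done on whole F1 testes (2 IP and 2 input samples). Per the submitters' processing notes, BWA 0.7.12, MACS2 2.2.7 and mm10 were used, with no role given. The authors deposited 1 merged peak list, which gives for each peak a fold (the ratio of signal to background at the summit), its −log10 q and an integer score, the last of which was not used. Because the authors' list holds no values per sample, no error between animals could be given.

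Gene positions and promoter windows came from RefSeq (GRCm38.p6). A host was a protein-coding or lncRNA gene whose span held the whole snoRNA gene, whatever its strand; strand was read from the promoter windows. Genes were counted by summits within 1 kb, with exact Clopper-Pearson 95% intervals, in Python 3.11.15 with pandas 2.3.3 and scipy 1.17.1. The counting was tested on simulated data, and no significance test was made. The members and gene lists were chosen with earlier results of these data known, and the length class and the array class after their values were seen.

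Named are the 6 peaks of highest fold in each place with their snoRNA gene and host, Snord and Snora genes with a summit inside, the 5 hosts richest in snoRNA genes and those with most summits near them (9 tied), the imprinted arrays, the 3 peaks on each side of 1 kb and the 3 particle genes of highest fold. Others were picked after their values were seen. Alternatives were other windows, stricter peaks, peak intervals, clusters, symbols and hosts. No sequence of a snoRNA gene was used.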

Additional observations from a re-analysis of the deposited data

How the results depend on the processing

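Of 70 alternative values, 40 stayed within the counting interval or within 1.5 times the count, and 30 moved. The share of snoRNA genes with a summit, 9.87% within 1 kb, was 6.74% within 500 bp and 17.2% within 2.5 kb. It was 7.21% with a fold of at least 5, 3.53% with a −log10 q at or above the median, 24.2% for Snord and Snora symbols, 7.66% without numbered genes of 126 to 138 bp and 11.7% without the Snhg14 array. Other short RNA genes were not counted under these alternatives. Peaks at host ends numbered 13 within 500 bp, 68 within 2.5 kb, 16 by fold, 9 by −log10 q and 12 with protein-coding hosts alone. Peaks inside hosts numbered 69 within 2.5 kb, 14 by −log10 q, 3 for Snord and Snora, 13 without the numbered class and 12 without it and the array. Those without a host numbered 22 by −log10 q, 2 for Snord and Snora and 9 without the numbered class, with or without the array. The median fold was 7.22 by fold, 9.63 by −log10 q, both by construction, and 5.74 for Snord and Snora. Genes with a summit inside numbered 17 by −log10 q. The near-to-away density ratio in hosts was 3.02 with protein-coding hosts alone and 1.13 without the numbered class, but 1.96 without it and the array. Hosts with a summit at an end were 27.5% by fold, 37.7% within 500 bp and 56.0% within 2.5 kb. Under the same settings all protein-coding genes had 24.4%, 32.4% and 52.5%, and all lncRNA genes 13.7%, 12.3% and 31.0%. The causes were not tested. The alternatives without the numbered class, without the array or without both, and the counts of genes with a summit inside under stricter peaks, were chosen after seeing the data. No paired analysis was possible because the list is merged, so replicates could not be left out either, and the density ratio was not computed by peak interval. Depth is unknown, so a missing summit shows only that no peak was called.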
